A study of Mus musculus with 4 samples.

Results

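The cytosolic ribosomal protein (RP) genes were described here by the Zeb1 peaks that the authors assigned to them in mouse embryonic stem cells. A peak was a member where its gene symbol began with Rpl or Rps followed by a digit, or was Rpsa, Rplp0, Rplp1 or Rplp2, without the Rps6k kinases, symbols with -ps and Rps19bp1. This gave 64 of the 17435 peaks in the deposited list, on 52 symbols and 17 chromosomes. Of the 64 peaks, 32 lay on 27 genes of the 60S subunit, 27 on 21 genes of the 40S subunit and 5 on 4 paralogs. The cells were D3, 1 established mouse embryonic stem cell line, at passages 5 to 8 in GS, a serum-free N2B27 medium with the MEK inhibitor PD0325901 at 1 μM, the GSK-3 inhibitor CHIR99021 at 3 μM and LIF at 20 ng/mL. Chromatin was cross-linked with 1% formaldehyde and sheared to about 200 bp. The groups were 3 Zeb1 ChIP libraries, each made with 8 μg of anti-Zeb1 antibody, and 1 input library of chromatin without the antibody. The list gives for each peak the mean number of treatment (Zeb1 ChIP) reads, the mean number of input reads and the mean enrichment over input, and no value per library. No spread between the libraries and no test over them could therefore be had, and the depth of each library is unknown from the list.

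Ribosomal proteins fold around the ribosomal RNAs into the large (60S) and small (40S) subunits of the ribosome, and their genes are among the most actively transcribed in dividing cells. Many of their transcripts start with a C inside a run of pyrimidines, the 5′ terminal oligopyrimidine tract, through which mTOR controls their translation. Zeb1 is a zinc finger and homeodomain factor that binds E-box sequences and is best known as a repressor of epithelial genes.

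The promoters of the genes at both ends of the enrichment order are shown first, with each gene ranked by the promoter peak nearest its start. Each stretch runs 5′ to 3′ on the gene strand from 100 bases before the transcription start site (TSS) through the first 20 transcribed bases. Capitals mark the letters CCGGAAG (an ETS core), GGGCGG (an SP1 box), AAGATGGC (a YY1 core) and CACCTG (a Zeb1 core) on either strand, and the run of C and T that opens the transcript. The sequences are from RefSeq on GRCm38.p6, and each stretch lay wholly inside its peak. The highest were Rps16 (chr7:28350589-28350708, + strand), Rpl31 (chr1:39367751-39367870, + strand) and Rps15 (chr10:80292331-80292450, + strand).
Rps16: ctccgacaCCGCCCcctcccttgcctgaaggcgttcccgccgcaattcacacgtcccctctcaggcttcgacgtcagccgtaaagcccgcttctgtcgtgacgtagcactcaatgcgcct
Rpl31: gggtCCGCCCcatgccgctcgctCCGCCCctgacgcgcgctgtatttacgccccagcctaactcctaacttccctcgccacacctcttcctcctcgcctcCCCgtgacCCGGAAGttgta
Rps15: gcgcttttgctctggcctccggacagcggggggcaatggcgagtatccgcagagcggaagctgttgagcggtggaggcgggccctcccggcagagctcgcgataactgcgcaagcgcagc

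The lowest were Rpl32, for which no sequence was given, Rps9 (chr7:3703941-3704060, + strand) and Rpl38 (chr11:114668480-114668599, + strand), with capitals as above.
Rps9: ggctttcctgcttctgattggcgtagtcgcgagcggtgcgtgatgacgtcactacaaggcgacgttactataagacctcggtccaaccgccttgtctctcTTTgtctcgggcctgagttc
Rpl38: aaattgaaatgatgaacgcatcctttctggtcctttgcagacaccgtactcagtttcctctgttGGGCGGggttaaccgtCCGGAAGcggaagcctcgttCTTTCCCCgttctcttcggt

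Of these 5 stretches, that of Rpl38 carried an ETS core, an SP1 box and a transcript opening with 8 pyrimidines. That of Rpl31 held an ETS core and 2 SP1 boxes, and that of Rps16 held 1 SP1 box. Those of Rps15 and Rps9 held none of the 4 motifs, and none of the 5 stretches held the Zeb1 core. Motif letters in so short a stretch thus did not follow the order of enrichment.

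Zeb1 sites are shown for the genes with the most enriched promoter peaks. The motif searched was CNCACCTG, CNTACCTG, TNCACCTG or TNTACCTG on both strands, where the forms with CACCTG overlap the Zeb1 core. Each line gives the motif nearest the centre of the peak in capitals, with 10 bases on either side, read on the strand that carries it. The sites were those of Rps15 (chr10:80293775-80293802, + strand), Rpl27a (chr7:109519905-109519932, - strand), Rpl10a (chr17:28328078-28328105, - strand), Rpl21 (chr5:146833818-146833845, - strand) and Rpl12 (chr2:32962039-32962066, + strand), from GRCm38.p6.
Rps15: gtggtgaagaCGCACCTGagggacatga
Rpl27a: gcttgcggtgCTTACCTGtcggcacaca
Rpl10a: agcctaagccTCCACCTGggaggaggcg
Rpl21: ctcttaatcgCACACCTGcactttcgaa
Rpl12: ttttcttcagTGTACCTGaggtgcaccg

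The peaks of Rps16, Rpl31 and Rps3a1, also among the 8 RP promoter peaks with the highest enrichment, held no such motif over their whole length. Among the 5 printed sites, that of Rpl12 lay closest to the centre of its peak, at 72 bp, and that of Rps15 farthest, at 764 bp.

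The first question was how many RP genes carried a Zeb1 peak. A peak was called a promoter peak where the deposited distance from its centre to the TSS was at most 5 kb. Of the 77 RP genes listed (46 of the 60S and 31 of the 40S subunit, paralogs apart), 46 had a promoter peak under their own symbol (59.7%, 95% Wilson interval 48.6 to 70%), against 42.8% of the 21000 protein-coding genes. At any distance the count was 48 genes (62.3%), against 50.6%. The RP share thus lay above the background by more near the start than at any distance.

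Symbols hid part of the occupied starts. Counting any peak that covered a curated RefSeq start of the gene, whatever symbol it was given, 55 of the 77 RP genes were occupied (71.4%, 60.5 to 80.3%), against 47.7% of protein-coding genes. The subunits did not stand apart, with 33 of 46 genes for the 60S (71.7%) and 22 of 31 for the 40S (71.0%). Mitochondrial RP genes, whose products build the separate ribosome of that organelle, had 49 of 78 starts under a peak (62.8%). Translation factor genes whose mRNAs also carry a pyrimidine tract had 17 of 22 (77.3%), and ribosome biogenesis genes 35 of 49 (71.4%). Genes of the wider translation apparatus thus had overlapping intervals, and no difference between the cytosolic RP genes and these lists was shown.

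**Figure D1:**
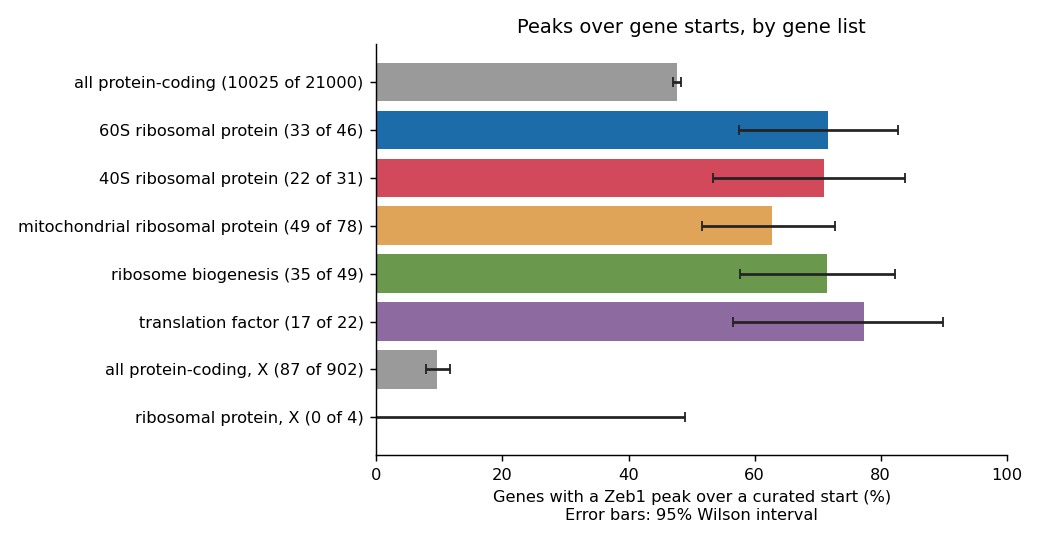
Share of genes (%, bars) with a Zeb1 peak over a curated start, by gene list, with 95% Wilson intervals. The 60S (71.7%) and 40S (71.0%) RP genes sit above all protein-coding genes (47.7%), and the 4 X-linked RP genes have no such peak.

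X-linked and autosomal RP genes were also counted apart. The 4 X-linked RP genes, Rpl10, Rpl36a, Rpl39 and Rps4x, had no peak over a start, where 9.65% of the 902 X-linked protein-coding genes had one. Their nearest peaks lay 246466 bp away for Rpl10, 108704 bp for Rpl36a, 60260 bp for Rps4x and 35222 bp for Rpl39. With 4 genes, the interval for a share of 0 runs to 49.0%, so a difference from other X-linked genes was not detectable. Among autosomal genes, 55 of 73 RP genes (75.3%) and 49.6% of all protein-coding genes had a peak over a start.

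In all, 22 RP genes had no peak over a start. They included Rpl3, Rpl4, Rpl6, Rpl8, Rpl10, Rpl13a, Rpl15, Rpl24, Rpl28, Rpl30, Rpl36a, Rpl39 and Rpl41 of the 60S subunit, and Rps3, Rps4x, Rps21, Rps26, Rps27, Rps27a and Rps29 of the 40S subunit. The nearest peak lay at a median of 14877 bp from their starts, between 2806 bp for Rpl13a and 246466 bp for Rpl10. Of these 22 genes, 19 had no peak under their symbol at any distance, and Rpl8, Rpl13a and Rps29 had one elsewhere.

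A further 10 RP starts lay under a peak that the authors named for another gene. For 6 of them that gene was a small nucleolar RNA (snoRNA), a guide of ribosomal RNA modification that is cut from an intron of its host. The peak over Rpl13 was named Snord68 and had 127 treatment reads at an enrichment of 6.70. The peak over Rps2 was named Snora64 and had 112 treatment reads at 4.44. The peaks over Rpl17 (Snord58b, enrichment 3.94) and Rpl23 (Snora21, 7.17) also belonged to the snoRNA group. The other 4 were the peaks over Rpl7 (named Rdh10, 8.38), Rpl18 (Fam83e, 9.89), Rpl26 (Gm15772, 4.81) and Rpl34 (Rpl34-ps1, 8.87). These 10 peaks had medians of 6.51 for enrichment, 82.4 for treatment reads and 2750 bp for length. The 53 RP promoter peaks had 6.09, 57.7 and 1750 bp. The higher read count thus went with longer peaks, and enrichment ran from 3.94 to 9.89, so weakly enriched peaks were among the 10. Over the peaks on the starts of all 55 occupied genes, the median enrichment was 6.10 and the median of treatment reads 59.1.

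Within the RP promoter peaks themselves, 4 of 53 covered the start of a snoRNA gene (7.55%), against 0.168% of all promoter peaks. These were the peaks of Rpl23a (over Snord42b), Rpl27a (Snora3), Rpl32 (Snora7a) and Rps13 (Snord14a). In the reference, 23 of the 77 RP genes held a snoRNA gene. The start of another protein-coding gene lay under 8 of the 53 peaks (15.1%), near the 12.6% of all promoter peaks. For 7 of them the peak sat on the promoter that the RP gene shares with a neighbour: Lrsam1 at Rpl12, Iqcg at Rpl35a, Med22 at Rpl7a, Lias at Rpl9, Vps52 at Rps18, Trappc4 at Rps25 and Ndufa7 at Rps28. The 8th was the peak downstream of Rps15, over the start of Apc2. For these shared starts the reads cannot be given to one gene or the other.

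The median enrichment of RP promoter peaks was somewhat low. Over the 53 RP promoter peaks, on 50 symbols, enrichment had a median of 6.09, with quartiles of 5.0 and 7.93 and a range from 3.00 to 16.6. The median over all 10698 promoter peaks was 6.74, outside the 5.4 to 6.64 interval of the RP median. At an enrichment of at least 5 there were 40 RP peaks (75.5%, 62.4 to 85.1%), against 81.0% of promoter peaks, a background inside that interval. At least 10 was reached by 5 RP peaks (9.43%, 4.10 to 20.3%), against 13.4%. Above the upper quartile of promoter peaks lay 10 RP peaks (18.9%, 10.6 to 31.4%), against 24.9%. Below the lower quartile lay 17 (32.1%, 21.1 to 45.5%), against 24.9%. The interval of each of these shares holds the background, so the RP promoter peaks stood lower in the median only.

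The read counts behind the ratio were compared next. The median of treatment reads was 57.7 in RP promoter peaks, with quartiles of 44.5 and 69.0 and an interval of 48.0 to 61.9, and 52.6 in all promoter peaks. The median of input reads was 20.2 (interval 17 to 21.9), against 17. Input reads above the upper quartile of promoter peaks were found in 17 RP peaks (32.1%, 21.1 to 45.5%), against 24.3%. The intervals for treatment reads and for this share hold the background, and that for input reads reaches it, so per peak neither read count stood clearly apart. Per kb of peak, the RP median of treatment reads was 29.5 (interval 26.7 to 34.3), against 26.8 for all promoter peaks. The RP median of input reads per kb was 9.68 (8.95 to 10.7), against 8.33, which lies outside the interval. The plain ratio of mean treatment over mean input reads, not normalised for mapped reads, had a median of 2.99 in RP promoter peaks (interval 2.63 to 3.23) and 3.23 in all. The lower ratio was thus less distinct without the authors' normalization, with the background at the edge of the interval.

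**Figure D2:**
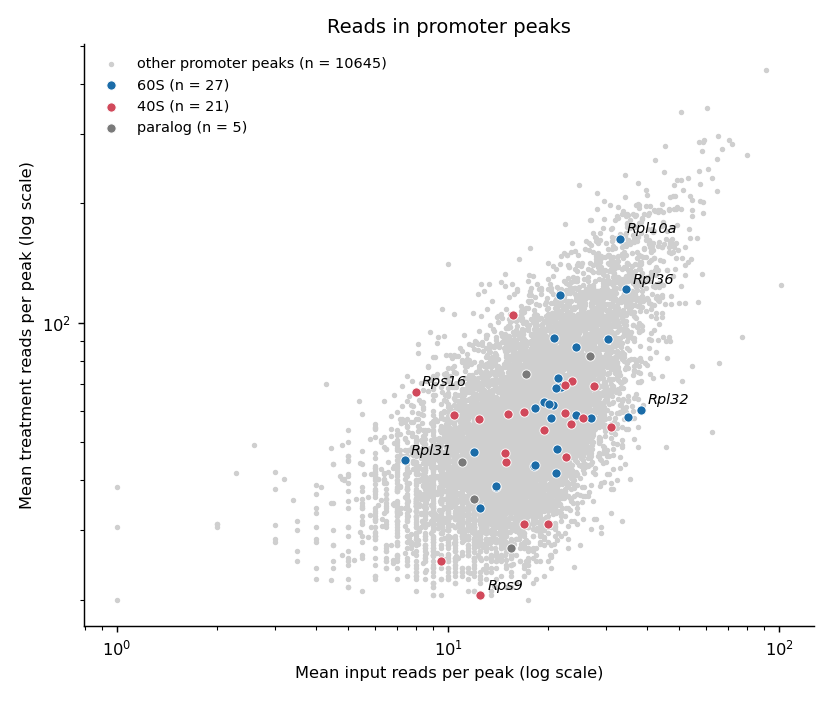
Mean treatment reads against mean input reads per promoter peak (both axes logarithmic), with RP peaks coloured by subunit over the other promoter peaks in grey. Rps16 (67.0 and 8.00 reads) and Rpl31 (45.0 and 7.43) lie left of the cloud's middle, Rpl32 (60.3 and 38.1) right of it and Rpl10a (163 and 33) near its top.

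The subunits differed little in these values. Median enrichment was 6.10 over 27 peaks of 60S genes and 5.72 over 21 peaks of 40S genes. Median treatment reads were 60.3 and 57.0, median input reads 21.2 and 17, and median lengths 1850 and 1700 bp. The median enrichment of the comparison lists was 6.71 for 42 mitochondrial RP peaks (interval 5.96 to 7.18), 7.38 for 30 ribosome biogenesis peaks (5.90 to 8.76) and 7.78 for 17 peaks of the translation factors (5.80 to 9.31). These intervals overlap that of RP peaks. At least 10 was reached by 7.14% of the mitochondrial RP peaks, 5.88% of the translation factor peaks and 3 of 30 ribosome biogenesis peaks. Among the mitochondrial RP peaks 81.0% reached an enrichment of 5, the same share as of all promoter peaks. Across the 53 RP promoter peaks, which are peaks of 1 averaged list and no replicates, enrichment had a Spearman's rho of 0.56 with treatment reads and -0.32 with input reads. The same correlations over 10698 promoter peaks were 0.44 and -0.38. Since enrichment is computed from these reads, the correlations only describe how the list was built. Treatment reads had a rho of 0.51 with peak length over the 53 peaks and of 0.68 over all.

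At the head of the order stood proteins of both subunits. Rps16, a 40S protein of the head of the small subunit, had the highest enrichment, 16.6, in a peak of 1650 bp at chr7:28349951-28351600. It held 67.0 treatment and 8.00 input reads, and 99.0% of promoter peaks had a lower enrichment. Only 3.48% of promoter peaks had fewer input reads, so its ratio rested on a low input as well as on a treatment count above the RP median. Rpl31, a 60S protein at the rim of the exit tunnel, followed at 12.9 (chr1:39367351-39368900) with 45.0 treatment and 7.43 input reads. Its treatment reads were below the RP median and its input reads the lowest of the 53 peaks. Rps15, also a protein of the head, likewise had 12.9 (chr10:80291251-80294800), but with 105 treatment reads over 3550 bp and 15.7 input reads.

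Rps3a1, a 40S protein, came next with an enrichment of 11.7, from 58.6 treatment and 10.4 input reads. Rpl27a, of the 60S subunit, had 11.2 with 117 treatment and 21.9 input reads. These 5 are the RP promoter peaks at or above 10, and their input reads ran from 7.43 to 21.9. Rpl10a followed at 9.93 (chr17:28327701-28329850), with 163 treatment reads, more than in 98.8% of promoter peaks and the most of any RP promoter peak. Rpl21 had 9.86 with 86.7 treatment reads, and Rpl12, a protein at the base of the stalk, had 9.63 with 91.7. High enrichment was thus reached both by peaks with few input reads and by peaks with many treatment reads. Rpl36 was second by treatment reads, at 121, but with 34.4 input reads its enrichment was 7.64.

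The low end held peaks with much input and peaks with few reads. The peak downstream of Rps15 was lowest, at 3.00, with 31 treatment and 20.0 input reads. Rpl32, of the 60S subunit, had 3.11 (chr6:115806551-115810350), with 60.3 treatment and 38.1 input reads over 3800 bp, the longest RP promoter peak. Its input reads were more than in 98.0% of promoter peaks, while its treatment reads were above the RP median. Rps9, of the 40S subunit, had 3.20 (chr7:3703401-3704900) with 20.5 treatment reads, just above the 20 that is the lowest in the list. Rpl38, a 60S protein known from mice with altered axial patterning, had 3.29 (chr11:114667551-114670900) with 57.7 treatment and 34.9 input reads over 3350 bp. Rpsa, a 40S protein also known as the laminin receptor, had 3.40 with 54.5 treatment and 31 input reads. Apart from Rps9 and the downstream peak of Rps15, these low ratios came with input reads of 31 to 38.1 and treatment reads near the RP median.

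By role, the stalk recruits the GTPases of translation, and each of its 3 genes had a promoter peak, a count too small to tell from the family share (interval 43.9 to 100%). Rplp0, its base, had an enrichment of 6.96 with 72.7 treatment reads. Rplp1 had 6.20 with 63.0, and Rplp2 had 8.22 with 47.2. All 3 lay above the RP median enrichment of 6.09, but Rplp1 lay below the 6.74 of all promoter peaks. So few peaks do not set the stalk apart. Rpl5 and Rpl11, which carry the 5S ribosomal RNA into the large subunit and bind Mdm2 when ribosome assembly fails, had 6.58 and 5.29, with 62.4 and 58.6 treatment reads.

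The 8 genes of the polypeptide exit tunnel were mixed, with 6 of 8 starts under a peak. Rpl31, given above, was the highest of them. Rpl19 had an enrichment of 5.98, Rpl35 had 5.56 and Rpl23a had 5.4. Rpl17 and Rpl26 were covered only by the peaks named for Snord58b and Gm15772. Rpl4, whose loop lines the tunnel, had its nearest peak 40364 bp away, and Rpl39, which narrows it, is X-linked and had none. Of the mRNA entry proteins, Rps2 lay under the Snora64 peak, and Rps3 had its nearest peak at 11309 bp. Fau encodes the third of them, Rps30, as a fusion with a ubiquitin-like protein and falls outside the symbol rule. Its nearest peak lay at 1904 bp.

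Rps27a encodes its ribosomal protein as a fusion with ubiquitin, and its nearest peak lay at 20940 bp. No gene of the mRNA entry or ubiquitin fusion lists had a peak of its own symbol. Each list has 3 genes, and the interval of 0 to 56.1% holds the 50.6% of all protein-coding genes. Of the 18 RP genes on a list of those mutated in Diamond-Blackfan anaemia, an inherited failure of red cell formation, 14 had a peak over a start (77.8%), and the median enrichment of their promoter peaks was 5.48. The share was near that of the whole family, and the median lay inside the interval of the RP median.

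Paralogs replace or accompany their parent protein in particular tissues, and 6 of 11 listed had a peak over a start (54.5%, 28.0 to 78.7%). That interval holds the 47.7% of all protein-coding genes. Rps27l, a paralog of Rps27 induced by p53, had 8.84 with 74.4 treatment reads, and Rpl22l1, a paralog of Rpl22, had 8.10 with 44.5. Both exceeded the RP median enrichment. The parent Rps27 had no peak, while Rpl22 had one at 6.83. Rps4l, a paralog of the X-linked Rps4x whose transcript the authors' annotation gives as non-coding, had 6.19 with 82.6 treatment reads, so the autosomal copy was covered and the X-linked parent was not. Rpl3l, a paralog of Rpl3 known from heart and skeletal muscle, had peaks of 6.05 and 3.55 over the starts of different transcripts, and its parent had none. Rpl36al lay under the peak named Mgat2 (5.72), and Rpl37rt under the peak named Gm13826 (5.85). Rpl7l1, Rpl10l, Rpl39l, Rps27rt and Rpl34-ps1 had no peak over a start. The peak with the symbol Rpl34-ps1 lies over the start of Rpl34, whereas RefSeq places Rpl34-ps1 on chromosome 6, 75339 bp from the nearest peak.

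The next question was where the peaks sat on their genes. Distances are signed so that positive is downstream of the TSS. The centre lay within 1 kb of the TSS in 50 of 53 RP promoter peaks (94.3%), against 85.0% of all promoter peaks. It lay downstream of the TSS in 48 (90.6%, 79.7 to 95.9%), against 74.8%. The RP median was 236 bp downstream (interval 143 to 317), with quartiles of 57.0 and 444, against 163 bp for all promoter peaks and 79.5 bp for mitochondrial RP peaks. Among the translation factors with a pyrimidine tract, 17 of 17 peaks were centred downstream (100%, 81.6 to 100%), at a median of 211 bp, and among ribosome biogenesis genes 21 of 30. RP peaks were thus centred downstream more often than promoter peaks in general, as were those of the translation factors, while the interval of the RP median distance holds the median of all promoter peaks.

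The peaks still covered the start. Of the 53 RP promoter peaks, 50 covered the TSS of the transcript they were assigned to (94.3%), against 88.3% of promoter peaks. The 3 others were the peak of Rpl13a, centred 3455 bp upstream, and the downstream peaks of Rpl10a and Rps15, centred at 4954 and 4194 bp. These are also the 3 RP promoter peaks farthest from a TSS. The peaks reached a median of 707 bp upstream and 1074 bp downstream of the TSS, against 746 and 1129 bp for all promoter peaks. Their median length was 1750 bp, against 1950 bp. The more frequent downstream centres thus did not come with a longer reach downstream in the median. The longest after Rpl32 were those of Rps15 (3550 bp), Rpl7a and Rps18 (3400 bp each).

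**Figure D3:**
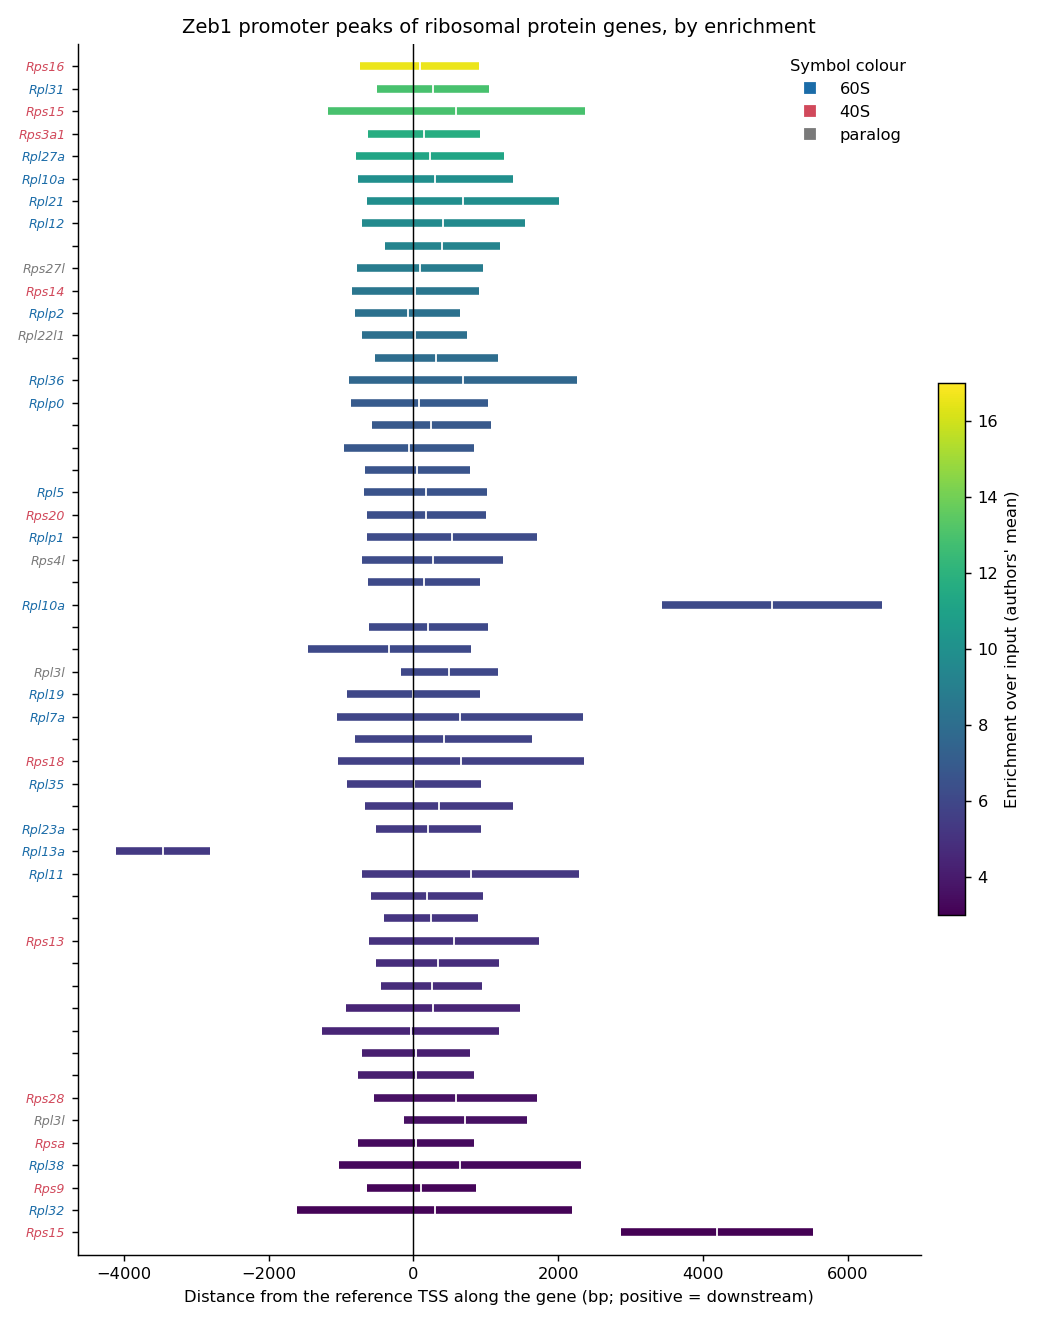
Extent of each of the 53 RP promoter peaks along its gene (bp from the reference TSS, positive downstream), ordered and coloured by enrichment, with the centre as a white tick and the symbols of the genes named by rule coloured by subunit. In all but 3 of the 53 the bar crosses the TSS, and the ones that do not are Rpl13a and the second bars of Rpl10a and Rps15.

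By the reference annotation, 28 of the 53 centres fell in an intron (52.8%, 39.7 to 65.6%), against 27.9% of promoter peaks. Intron 1 held 20 of them (37.7%, 25.9 to 51.2%), against 24.8%. An exon held 18 (34.0%, 22.7 to 47.4%), against 46.8%, a background inside the interval. RP centres thus lay in introns more often than those of promoter peaks in general. RP genes are short, and a peak took up much of the gene. The 46 RP genes with a promoter peak had a median span of 3250 bp, against 24131 bp for the 8998 protein-coding genes with one. The peak held a median of 33.8% of the RP gene, against 4.82%. At least 50% of the gene lay in the peak for 14 of the 46 (30.4%), against 8.21%, and 4 RP genes lay in it whole, against 2.44% of the protein-coding genes. For such genes, reads at the promoter and in the gene body cannot be told apart in this list.

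RP genes have many processed pseudogenes, copies of the spliced mRNA set back into the genome, so the repeated sequence in each peak was measured. A 32-base word was called repeated where it occurred more than once in the reference genome, on either strand. The median RP promoter peak had 9.20% of its words repeated, with quartiles of 3.63 and 12.7%, against 0.164% in all promoter peaks and 0.256% in mitochondrial RP peaks. More than 10% of words were repeated in 25 of the 53 RP peaks (47.2%, 34.4 to 60.3%), against 5.97% of promoter peaks. A peak with no repeated word occurred once among the 53 (1.89%), at a peak of Rpl3l, against 45.4%. Ribosome biogenesis peaks also nearly all held a repeated word, with 1 of 30 free of them (3.33%), but only 2 of 30 had more than 10% (6.67%), and their median was 3.00%. RP peaks thus differed from all promoter peaks both in holding a repeated word and in the share of such words, and from ribosome biogenesis peaks in the share.

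The repeated words of RP promoter peaks were concentrated in the exons but not confined to them. In the RP promoter peaks 6421 of 12042 exonic words were repeated (53.3%), and 3265 of 86610 words outside exons (3.77%). In all promoter peaks the shares were 2.30% in exons and 2.60% outside, and in mitochondrial RP peaks 4.11 and 2.99%. The difference between RP peaks and the others was thus mostly one of exonic sequence. Over the 49 RP peaks with exonic words the median was 62.8%, and 29 of them had more than 50% repeated (59.2%, 45.2 to 71.8%), against 1.81% of 9562 promoter peaks with exonic words. The exonic words of the peaks at Rpl14, Rpl27a and Rps6 were all repeated (100%). The 4 lowest exonic shares among the subunit genes were those of Rps24 (1.27%), Rpl22 (2.16%), Rpl19 (5.17%) and Rps14 (8.33%). The family thus ran from genes whose exons in the peak were wholly copied elsewhere to genes whose exons were nearly unique.

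**Figure D4:**
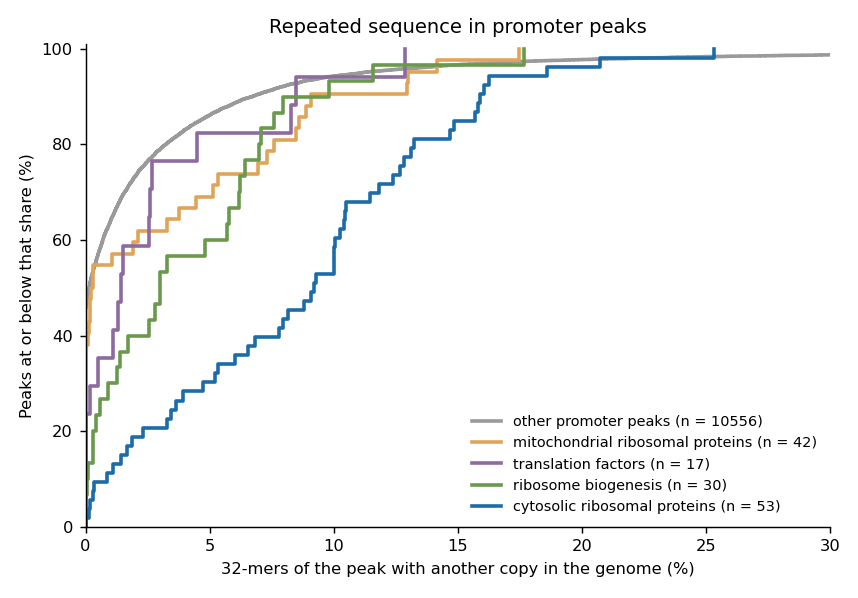
Share of promoter peaks (%, vertical) at or below a given share of repeated 32-base words (%, horizontal), 1 stepped line per gene group. The RP line runs below the others over most of its range, with a median of 9.20% against 0.256% for mitochondrial RP peaks and 0.164% for all promoter peaks.

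The authors kept only reads that aligned to 1 place, so the repeated share was also measured around every start. In the windows of 1 kb on either side of the start, a median of 9.54% of words were repeated for RP genes with a peak over the start and 6.42% for those without. Across all genes the order was the reverse, at 0.355% with a peak and 2.84% without. The RP order came from the 4 X-linked genes (median 3.76%), since the 18 autosomal RP genes without a peak had a median of 9.59%. Autosomal RP genes with and without a peak thus had nearly the same share. Across the 53 RP promoter peaks the repeated share had a Spearman's rho of 0.30 with input reads and of 0.01 with enrichment. Over all promoter peaks these were 0.03 and -0.02. Whether repeated sequence has a part in the input reads of RP peaks was not tested.

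The sequence of the peaks was searched for the Zeb1 motif spelled above. It occurred in 37 of the 53 RP promoter peaks (69.8%, 56.5 to 80.5%), against 76.8% of all promoter peaks and 76.2% of mitochondrial RP peaks. The 60S peaks held it in 22 of 27 (81.5%) and the 40S peaks in 12 of 21 (57.1%). CACCTG alone occurred in 34 of 53 (64.2%, 50.7 to 75.7%), against 81.8%. In the central 200 bp the motif occurred in 4 of 53 (7.55%, 2.97 to 17.9%), against 14.7%. The median density was 0.571 motifs per kb (interval 0.426 to 0.690), against 0.645 in all promoter peaks. By each of these counts RP promoter peaks held the Zeb1 letters no more often than all promoter peaks. For CACCTG the background lay above the RP interval, but RP promoter peaks were also shorter (median 1750 bp, against 1950 bp). No density of CACCTG per kb was measured, and whether length has a part in its share was not tested. CACCTG occurred in 25 of 42 mitochondrial RP peaks (59.5%, 44.5 to 73.0%) and 19 of 30 ribosome biogenesis peaks (63.3%, 45.5 to 78.1%), with intervals also below the background. In translation factor peaks it occurred in 14 of 17 (82.4%, 59.0 to 93.8%), an interval that holds both the background and the RP share. The median lengths of the peaks of these 3 lists were 1600, 1675 and 1900 bp. The base composition of RP promoter peaks was a little lower in G and C than that of all promoter peaks, at a median of 54.3% against 56.8%. Their density of CpG was similar, 5.03 against 5.0 per 100 bp.

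Promoter windows of 300 bases, from 250 before the start to 50 after it, were given for 57 of the 77 RP genes (74.0%). This is below the 80% needed to speak for the family, so a comparison over the family is void and the shares describe these 57 genes. The genes with no window included Rpl3, Rpl7, Rpl8, Rpl17, Rpl21, Rpl23a, Rpl29, Rpl30, Rpl32, Rpl36, Rplp1, Rps14, Rps20, Rps27a and Rps29. Shares count genes, and a gene counts where any of its windows holds the letters. Of the 57 RP genes, 8 had more than 1 window. The ETS core occurred in 24 of 57 RP genes (42.1%), against 9.93% of the 27025 genes with a window. The YY1 core occurred in 5 (8.77%), against 3.19%. The SP1 box occurred in 35 (61.4%), against 38.2%, and the Zeb1 core in 6 (10.5%), against 22.6%. The ETS core occurred in 37.7% of 69 mitochondrial RP genes (27.2 to 49.5%) and 31.7% of 41 ribosome biogenesis genes (19.6 to 47.0%), both above the background. In 16 translation factor genes it occurred in 18.8% (6.59 to 43.0%), an interval that holds the background. The Zeb1 core occurred in 14.5, 12.2 and 6.25% of the genes of these 3 lists, with intervals that all hold the background of 22.6%. In these 57 RP genes the letters of ETS factors were thus more frequent than in all 27025 genes with a window. Those of Zeb1 were less frequent (interval 4.91 to 21.1%). That background was not restricted to the 21000 protein-coding genes used above, and the shares do not speak for the whole family.

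A pyrimidine start was a C at the TSS followed by at least 4 of C or T on the gene strand. It was found in 13 of the 57 genes (22.8%, 13.8 to 35.2%), against 3.01% of all genes with a window. Allowing it within 5 bases of the annotated start gave 27 (47.4%), against 21.2%. Rpl38, printed above, has such a start. The presence of a peak did not sort these features. Among RP genes with a window, the ETS core occurred in 18 of 42 with a peak over the start (42.9%) and in 6 of 15 without (40%). The Zeb1 core occurred in 4 of 42 (9.52%) and 2 of 15 (13.3%), and the pyrimidine start in 9 of 42 (21.4%) and 4 of 15 (26.7%). A match describes letters in a window and not a bound site.

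**Figure D5:**
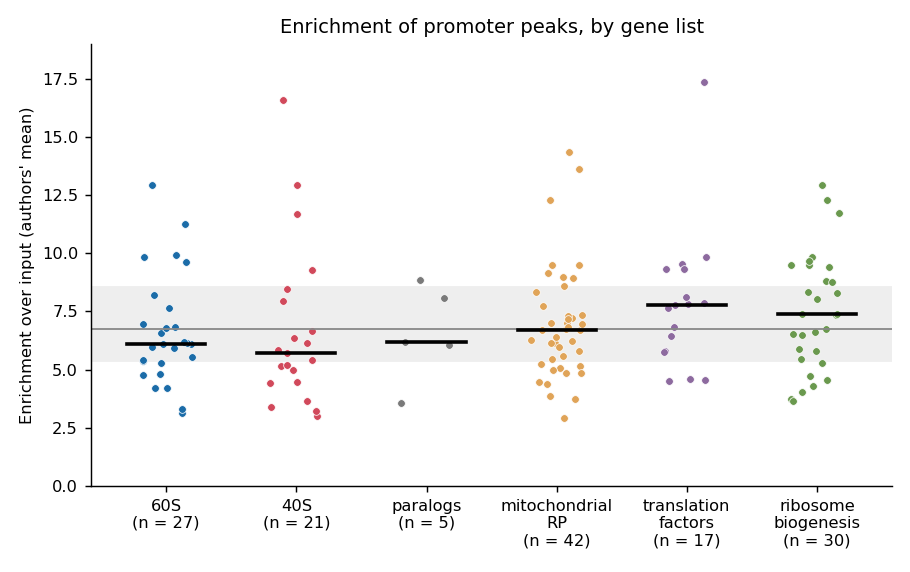
Enrichment over input of each promoter peak by gene group (points), with the median of each group (black bar) and the median (grey line) and quartiles (grey band, 5.35 to 8.56) of all promoter peaks. The RP medians (6.10 for the 60S, 5.72 for the 40S) lie below the median of all promoter peaks (6.74), and Rps16 is the highest RP point at 16.6.

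More than 1 peak was assigned to 11 symbols, 10 of them with 2 peaks and Rps15 with 3. At Rpl10a the peak over the TSS had 163 treatment reads and the one past the gene end 69.0, at an enrichment of 6.13. Rps15 had, beside the TSS peak at 12.9, the downstream peak at 3.00 and a peak centred 5706 bp upstream, inside Dazap1, at 5.64. The RP promoter held the highest value of these 3. At Rpl3l both peaks lay within 5 kb, as given above.

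The other multiple peaks joined a promoter peak to one beyond 5 kb, and 11 of the 64 RP peaks in all lay beyond 5 kb (17.2%, 9.88 to 28.2%), against 38.6% of all peaks. Their median enrichment was 7.42, with an interval of 4.7 to 9.35 that holds the 6.09 of the promoter peaks. They had a median of 1.20 Zeb1 motifs per kb (interval 0.694 to 2.73), against 0.571. At Rps13 the TSS peak had 5.0 and a peak 26190 bp downstream had 12.1, and the latter covered the start of Plekha7. At Rps14 the TSS peak had 8.48 and a peak 26871 bp upstream had 9.35, over the start of Ndst1. At these 2 genes the more enriched peak was thus the one on another gene's promoter. Rps28 had 3.65 at the TSS and 8.20 at 6748 bp downstream, inside Kank3. Rpl19 had 5.98 and, 8901 bp downstream, 8.00. Rpl11 had 5.29 and, 28504 bp upstream, 7.42.

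The remaining far peaks had no shared pattern. Rplp0 had 6.96 at the TSS and 5.74 at 8992 bp upstream, inside Pxn, where a peak of 8650 bp held 198 treatment reads, the most of the 64. Rpl38 had 3.29 at the TSS and 4.7 at 31643 bp upstream, with 22.5 treatment reads. Rps20 had 6.38 at the TSS and 5.78 at 21675 bp downstream, where the authors' annotation gives an ERVK element and 51.3% of words were repeated. Rpl8 had only a peak 7929 bp downstream, inside Zfp647, at 4.6. Rps29 had only a peak 718336 bp downstream, at 7.65, annotated as an L1 element with 89.0% of words repeated. The symbols of Rpl8 and Rps29 on the list therefore do not stand for a peak at those genes.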

How the data were processed

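The values come from the deposited peak list. Its treatment and input columns hold a signal per peak, a read number that the authors averaged over the ChIP libraries. Its enrichment is a ratio, treatment to input, which the authors scaled for mapped reads and averaged. The authors aligned to mm10 with STAR 2.4.2a, removed duplicates with Picard 1.136 and annotated peaks with HOMER 4.7. The deposited p-value reads 0 for each of the 17435 peaks and went unused. The legend gives positive distances as upstream. Against the reference, 9741 peaks with a positive distance lay downstream and 1 upstream, so positive is downstream here. The deposited distance was within 2 bp of the reference distance for 14191 peaks.

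Counts and medians of RP peaks are set beside the same values over all promoter peaks or genes, with 95% Wilson intervals for shares and order-statistic intervals for medians, which cover counting error only. There is 1 average per peak, so no SD and no test was possible. Genes and sequence came from GRCm38.p6 (45756 curated transcripts) and RefSeq promoter windows. The software was Matplotlib 3.10.9, numba 0.67.0, pandas 2.3.3, NumPy 2.4.6, pysam 0.24.0, SciPy 1.17.1 and Python 3.11.15, and the code was tested on simulated data. The members and lists were chosen with earlier results of these data known.

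Named genes were the 8 RP promoter peaks with the highest and 5 with the lowest enrichment, the 5 with the most treatment reads, the 3 longest and the 3 farthest from the TSS, genes with more than 1 peak or none of their symbol, peaks beyond 5 kb, paralogs, and the stalk, 5S, exit tunnel, mRNA entry and ubiquitin fusion lists. Some genes that meet this rule are counted and not named. Rpl22, beside its paralog, the genes with shared or snoRNA starts, and those given for exonic repeats were chosen after their values were seen, as were the split of repeated words by exon and the background of centre positions.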

Additional observations from a re-analysis of the deposited data

How the results depend on the processing

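Over 10 results, 37 alternatives were tried, and 29 stayed within the interval of the value or, for the count of genes, within 1.5 times it. The count of RP genes with a promoter peak, 46, was 45 within 1 kb, 47 within 10 kb, 35 at an enrichment of at least 5, 50 with paralogs and 55 for any peak over the start. The 8 that moved are other quantities by construction. Without normalization for mapped reads the median ratio was 2.99. Per kb of peak the medians were 29.5 treatment and 9.68 input reads. At an enrichment of at least 10 the share was 9.43%. The Zeb1 motif was found in 43.4% of RP promoter peaks on the forward strand only and in 7.55% in the central 200 bp. A pyrimidine start within 5 bases was found in 47.4% of the RP genes with a window. With 24-base words the median repeated share was 11.9%, against 1.33% in all promoter peaks, so the relative difference was smaller than with 32-base words.

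Leaving out each library could not be run, because the list holds 1 average over the libraries, and no paired analysis was possible because no result comes from a test. The list holds peaks with at least 20 treatment reads and an enrichment of at least 2, and its legend asks for a peak in 2 or more replicates. A peak of an RP gene that was below these limits, or called in 1 library only, is therefore not listed. Library depths are unknown from the list. Peaks of 1300 to 3800 bp do not resolve which part of a short RP gene gave the reads.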
